A study of Mus musculus with 9 samples.

Results

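Treadmill training was compared with a sedentary life in the gastrocnemius, the large calf muscle of the mouse, by RNA sequencing. The comparison rests on 6 of the 9 libraries of the study: 3 from sedentary mice (SED) and 3 from mice given aerobic exercise training (AET), assigned by their labels, and it takes in all 13944 genes that passed the filter on low counts out of 55416 gene identifiers. Training was running on a treadmill on 5 days a week, 60 min a day, for 8 weeks, and SED mice were left untrained. The other 3 libraries, from mice trained alike and given metformin in the drinking water (AET_MET), entered the model so that all groups share 1 estimate of the spread. The left gastrocnemius was snap frozen, so each library mixes RNA of fibers, vessels, nerve and connective tissue, and fewer cells of a type cannot be told apart from less RNA per cell. Strain, age, sex, the hours between the last run and collection, the hour of day and feeding were not stated in the labels. Samples are numbered within each group, with no word on whether they are different mice, and p-values therefore cover the spread among these samples alone, which could be technical.

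Skeletal muscle breaks down protein through the proteasome, to which the muscle ubiquitin ligases MuRF1 and atrogin-1 steer sarcomere proteins, and through autophagy. Transcription factors of the FOXO family, held in check by insulin and growth factor signalling, and the glucocorticoid receptor, which answers to stress hormone, both switch on genes of this program in fasting, disuse and illness. Endurance exercise is known for raising mitochondrial content and capillary supply through PGC-1 coactivators and VEGF, and for shifting fast fibers toward slower types. Muscle also keeps a circadian clock, in which BMAL1 and CLOCK drive genes whose products, the PER, CRY and REV-ERB proteins, act back on them.

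The 6 SED and AET libraries held 21702579 to 25355877 expected counts, and 11.4% to 15.6% of them fell on mitochondrial genes. Levels are given as CPM, the counts scaled to library size with TMM factors, in the order of replicates 1, 2 and 3. On the first principal component of log2 CPM over the 9 libraries, which took 25.9% of the variance, the SED libraries lay between -29.5 and -27.5 and the AET libraries between 17.8 and 31.8. Fiber genes were abundant throughout: the summed level of 10 markers of muscle fibers ran from 253000 to 292000 CPM in SED and from 262000 to 287000 CPM in AET. Markers of neutrophils and of T and B cells stayed under 1 CPM in sum in all 6 libraries. Libraries of both groups carried Y-linked transcripts and held Xist at 0.0477 CPM or less. The level of the Y-linked helicase gene Ddx3y, chosen after its values were seen, was nevertheless lower in AET, with 114, 116 and 114 CPM in SED and 84.5, 85.0 and 94.9 CPM in AET.

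Some libraries stood apart in part of their genes. In SED replicate 1, 18 of 20 genes of skin epidermis, a list drawn up after their values were seen, lay above 1 CPM. Their summed level was 571 CPM there, against 9.64 and 9.57 CPM in the other SED libraries and 7.46 to 13.1 CPM in AET. Flg, encoding filaggrin, stood at 127 CPM in SED replicate 1 and Krt10, a keratin of the outer epidermis, at 66.6 CPM, and neither passed 1 CPM in the other 5 libraries. Of the 11 epidermis genes tested, edgeR called none and had none at an unadjusted p under 0.05, limma-voom called none and DESeq2 called 1. In SED replicate 2, 16 of the 24 glucocorticoid receptor genes and targets had their highest SED level. In AET replicate 1, the mitochondrial transcripts mt-Co3 and mt-Nd3 stood at 138 and 319 CPM, against 389 to 803 and 762 to 1193 CPM in the other AET libraries.

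In all, 1712 of the 13944 genes tested, 12.3%, passed an edgeR quasi-likelihood test at a Benjamini-Hochberg adjusted p under 0.05. Of these, 812 were higher in AET (5.82% of genes tested) and 900 were lower (6.45%). Called genes did not overlap between the 6 libraries in 806 of the 812 rises and 892 of the 900 falls, where 32.7% of all genes tested did not overlap. Calls and overlap rest on the same values, so the lack of overlap follows largely from the calling and is no separate support. The balance of directions depended on the scaling: rises made up 58.0% of the 1691 calls made after upper-quartile scaling and 47.4% of those made after TMM. Among called genes, rises had the larger median change, 0.66 on the log2 scale against 0.48 for falls, and 189 rises and 142 falls passed 2-fold. The largest called change was a fall, of 4.72, against 3.44 for the largest rise. Called rises lay more often at low levels, as given below, and the part of level in these medians was not tested.

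**Figure D1:**
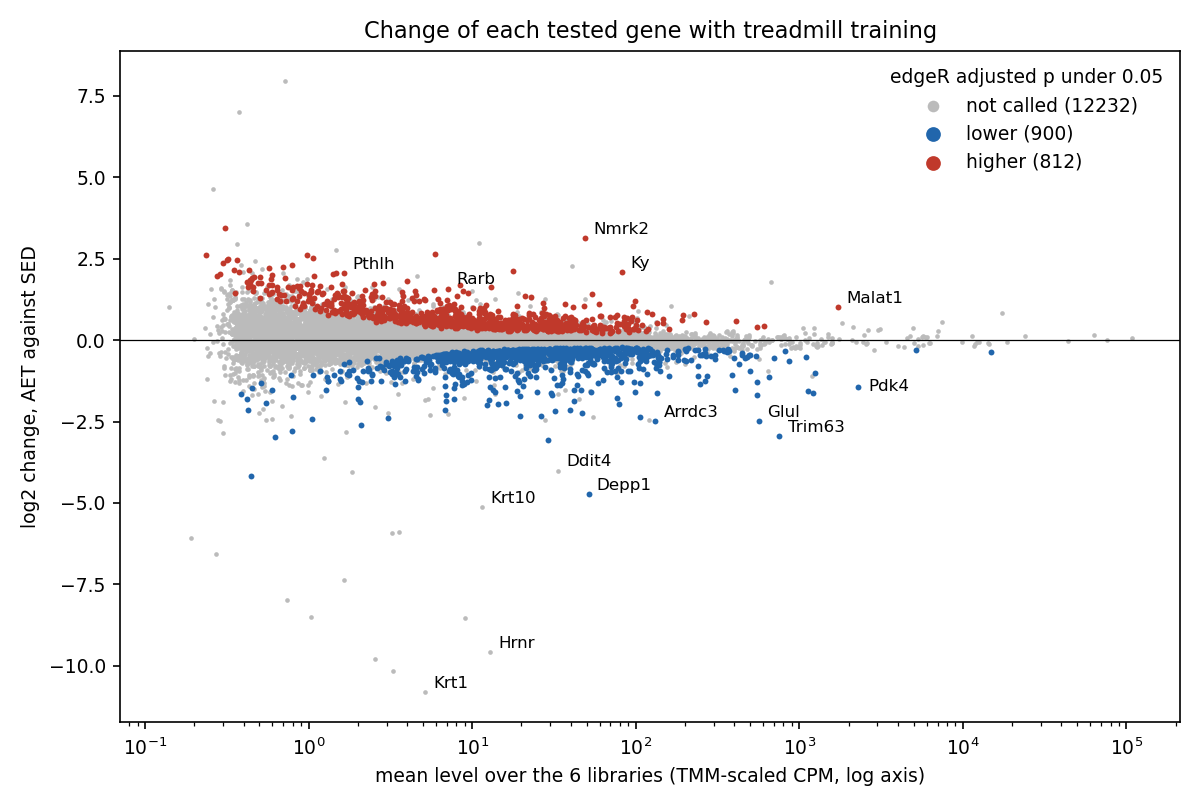
Log2 change in AET against SED (vertical axis) of each of the 13944 genes tested, by mean level over the 6 libraries in TMM-scaled CPM (horizontal log axis); red and blue points are genes called higher (812) and lower (900), grey points were not called. Called falls reach further into the abundant genes than called rises, and the deepest grey points include epidermis genes such as Krt1, seen in 1 SED library.

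Calls among abundant transcripts were mostly falls. Of the 929 genes with a mean of at least 100 CPM, 135 were called lower and 33 higher, 18.1% in all, while between 1 and 10 CPM the calls were 171 lower and 365 higher. Genes called lower took 8.96% ± 0.127 of all CPM in SED and 5.85% ± 0.243 in AET (mean ± SD, n = 3). Those called higher took 1.44% ± 0.0321 in SED and 2.17% ± 0.0785 in AET. Transcript length moved with the direction as well. Genes called higher had a median exon length of 5.70 kb, those called lower 4.40 kb and those not called 4.26 kb, and of 5 equal classes of length the longest held 262 rises and 147 falls and the shortest 91 and 151. The part of transcript length in the calls was not tested.

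Changes below are log2 values with their SE, as ±, and are AET against SED, so that a value below 0 is lower in AET. The SE was derived from the quasi-likelihood test, as the absolute change divided by the square root of its F statistic. Genes named as having risen or fallen were followed through 9 fits that left out 1 library and 10 other alternatives. Unless the sentence says otherwise, they kept that call in each of these that tested them. Not every alternative tested every gene, and the filter at 5 CPM in 3 libraries tested 8682. Genes given as not called that fall outside the rule for naming genes, described with the processing, were chosen after their values were seen, and genes called and outside the rule are marked so. Gene lists share members, so that 1 change can count in more than 1 list.

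The ubiquitin ligases of muscle were led by steep falls of the ligases known from atrophy. Of 22 tested, 8 fell and 1 rose (40.9%, against 12.3% of all genes). The median log2 change was -0.22 against 0.01 over all genes, and between 7 and 8 fell with any 1 library left out. Trim63, encoding MuRF1, which marks myosin and other thick filament proteins, stood at 1306, 1326 and 1379 CPM in SED and at 191, 141 and 192 CPM in AET. The 6 values left a wide gap, and the gene fell by 2.93 ± 0.34 on the log2 scale (edgeR adjusted p = 0.00319). Fbxo32, encoding atrogin-1, which marks regulators of translation and myogenesis, stood at 1828, 1843 and 1817 CPM in SED and at 652, 464 and 683 CPM in AET (log2 change -1.61 ± 0.18, edgeR adjusted p = 0.000763). Cblb, whose ligase acts on insulin receptor substrate, fell by 1.16 ± 0.12 and Fbxo31 by 0.71 ± 0.08.

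Smaller falls reached ligases of other classes. Fbxo40, another ligase of insulin receptor substrate, went from 518, 479 and 518 CPM in SED to 386, 382 and 391 CPM in AET (-0.39 ± 0.08), and Rnf115 fell by 0.50 ± 0.10 and Asb4 by 0.53 ± 0.11. These were chosen after their values were seen, as was Trim55, encoding the MuRF1 relative MuRF2, which was the ligase that rose. Its values were 27.3, 23.0 and 21.3 CPM in SED and 34.6, 30.3 and 32.8 CPM in AET (0.45 ± 0.10). Trim54, encoding MuRF3, was not called (-0.12 ± 0.09).

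FOXO factors and their targets held 15 falls among 25 genes and no rise (60%, against 12.3% of all genes). Trim63, Fbxo32 and Fbxo31, given above as ligases, are among these falls. The median log2 change was -0.71, and 14 to 16 fell with any 1 library left out. Foxo1 itself went from 35.7, 45.4 and 31.8 CPM in SED to 15.7, 11.5 and 10.5 CPM in AET (-1.59 ± 0.24, edgeR adjusted p = 0.00535), and Foxo3 from 64.7, 69.2 and 59.5 to 35.6, 33.9 and 31.4 CPM (-0.94 ± 0.10). Foxo4 and Foxo6 were not called, at 0.15 and 0.03 on the log2 scale. The gene with the deepest fall was Depp1, a FOXO target of autophagy, at 117, 111 and 69.1 CPM in SED and 2.91, 3.63 and 4.62 CPM in AET (-4.72 ± 0.53, edgeR adjusted p = 0.00368). Eif4ebp1, which encodes the translation repressor 4E-BP1, had the smallest p of all genes, with 44.0, 53.8 and 45.5 CPM in SED and 18.4, 17.3 and 19.6 CPM in AET (-1.38 ± 0.09, edgeR adjusted p = 1.29e-05). Other targets that fell were Sesn1, encoding a sestrin that restrains mTORC1 (-1.88 ± 0.19), Gadd45a, a growth arrest gene (-1.43 ± 0.22), and Pik3ip1, an inhibitor of PI3 kinase chosen after its values were seen (-0.55 ± 0.09). The negative regulator of the cell cycle Cdkn1a, also chosen so, had values of 10.4, 22.9 and 29.2 CPM in SED and 5.35, 6.87 and 7.42 CPM in AET and was not called (-1.67 ± 0.44, edgeR adjusted p = 0.0547).

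The letters of the FOXO motif, GTAAACA on either strand, were looked up in the 250 bases before the start of each gene in RefSeq (GRCm38.p6). Of the 25 genes of the FOXO list 20 had such a window and 2 held the motif, Trim63 and Txnip. Of the 24 genes of the glucocorticoid list 20 had a window and 2 held the motif, Klf9, which fell, and Hsd11b1, encoding an enzyme that reactivates glucocorticoids, which was not called. The 3 that fell are shown, with the motif in capitals: Trim63 at chr4:134314870-134315119 (plus strand, reverse complement of the motif, first base 194 before the start), Txnip at chr3:96557707-96557956 (plus strand, 121 before the start) and Klf9 at chr19:23140976-23141225 (plus strand, 100 before the start).
Trim63: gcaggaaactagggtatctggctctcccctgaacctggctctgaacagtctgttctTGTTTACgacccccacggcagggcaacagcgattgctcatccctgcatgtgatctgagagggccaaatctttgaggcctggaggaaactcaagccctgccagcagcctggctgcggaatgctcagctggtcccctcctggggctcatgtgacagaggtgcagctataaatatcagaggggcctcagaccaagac
Txnip: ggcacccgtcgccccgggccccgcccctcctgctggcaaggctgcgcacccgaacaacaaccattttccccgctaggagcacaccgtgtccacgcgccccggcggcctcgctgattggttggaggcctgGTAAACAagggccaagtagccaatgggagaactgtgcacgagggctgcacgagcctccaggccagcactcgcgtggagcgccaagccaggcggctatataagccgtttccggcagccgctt
Klf9: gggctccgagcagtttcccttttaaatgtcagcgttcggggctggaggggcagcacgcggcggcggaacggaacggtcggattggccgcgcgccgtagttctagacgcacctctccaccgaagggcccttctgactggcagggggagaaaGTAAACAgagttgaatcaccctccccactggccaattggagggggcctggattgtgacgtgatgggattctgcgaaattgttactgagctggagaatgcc
Among tested protein-coding genes with a window, 2.73% of 9809 held the motif, against 3.76% of the 691 called lower and 3.23% of the 558 called higher. Over all 32851 promoter windows the share was 3.17%. These are matches of letters and do not show that a factor binds.

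**Figure D2:**
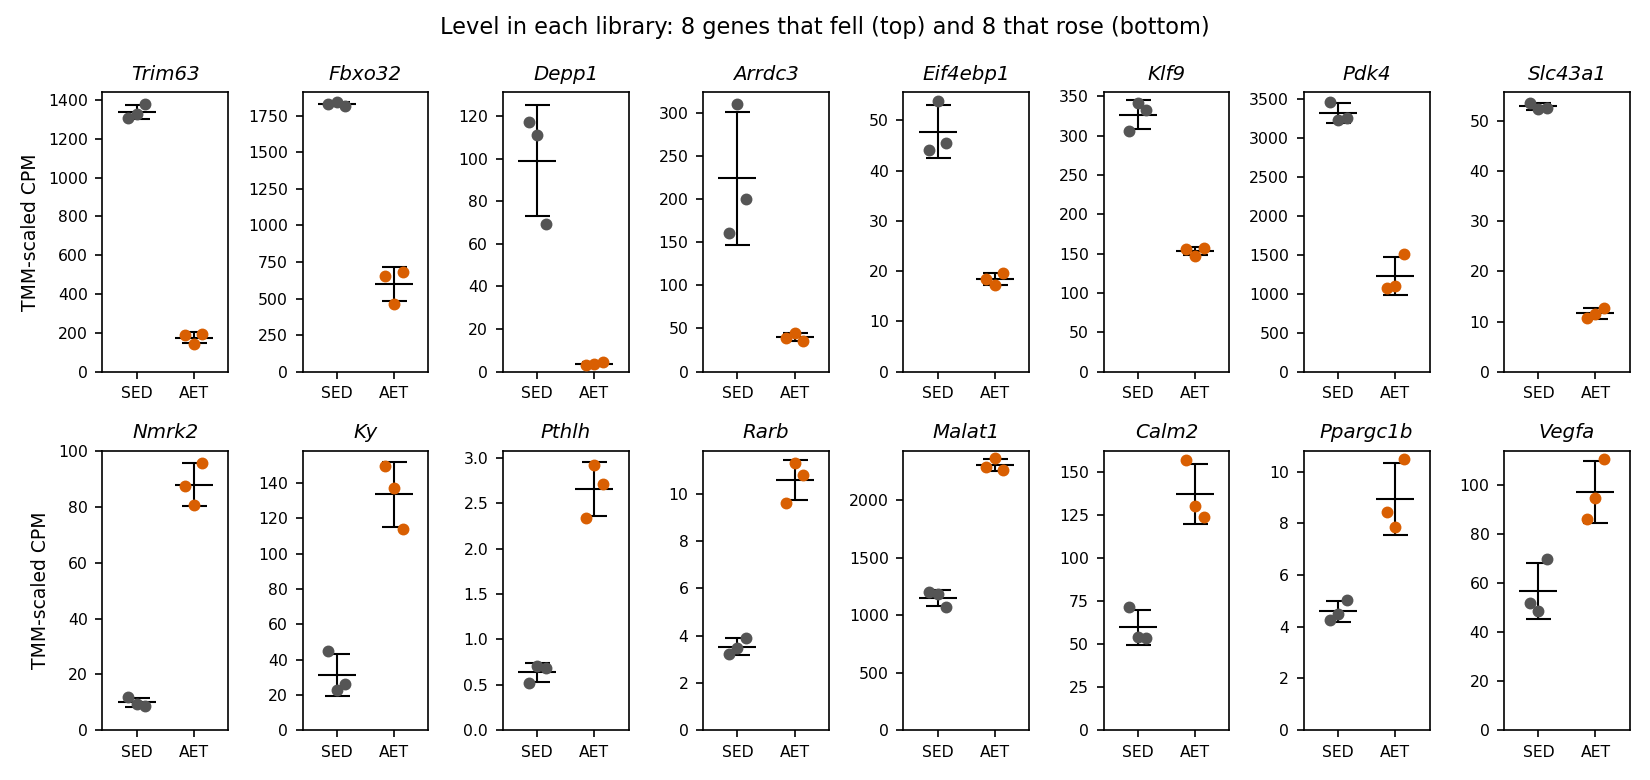
TMM-scaled CPM (vertical axes, each from 0) of 16 genes in the 3 SED and 3 AET libraries; points are libraries, and the bars are the mean ± SD of each group. In all 16 genes the libraries of the groups do not overlap, as for Trim63 (1306 CPM or more in SED, 192 CPM or less in AET) and Nmrk2 (11.8 CPM or less in SED, 80.7 CPM or more in AET).

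Many genes in the list of the glucocorticoid receptor and its targets fell as well. Of 24 tested, 13 fell and 2 rose (62.5%, against 12.3% of all genes), with a median log2 change of -1.34. The count of falls became 8 without AET replicate 3, that of rises 1 without AET replicate 1, 2 or 3 or SED replicate 1 or 3, and the median became -1.09 without SED replicate 2, the library in which 16 of the 24 genes had their highest SED level. Klf9, a transcription factor gene switched on directly by the receptor, stood at 306, 342 and 333 CPM in SED and 156, 147 and 157 CPM in AET (-1.09 ± 0.09, edgeR adjusted p = 5.89e-05). Tsc22d3, encoding the glucocorticoid leucine zipper protein GILZ, went from 319, 418 and 326 to 128, 168 and 123 CPM (-1.34 ± 0.14), and Cebpb, a factor of metabolic genes, fell by 1.55 ± 0.15. Glul, encoding glutamine synthetase, stood at 851, 1040 and 982 CPM in SED and at 159, 200 and 155 CPM in AET (-2.49 ± 0.36, edgeR adjusted p = 0.00790). Within each group the 3 values lay close together, and the groups lay far apart.

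Other targets varied widely within SED. Ddit4, encoding the mTORC1 inhibitor REDD1 and chosen after its values were seen, had 18.1, 143 and 27.0 CPM in SED and 3.15, 5.23 and 3.24 CPM in AET. Its estimate of -4.01 ± 1.01 was among the largest of the list, and it was not called (edgeR adjusted p = 0.0539). Cebpd showed the same shape, with 30.3, 82.4 and 42.9 CPM in SED and 6.40, 5.23 and 6.98 CPM in AET (-3.07 ± 0.51), and its call was lost without AET replicate 1, 2 or 3 (edgeR adjusted p up to 0.0602). Both were highest in SED replicate 2. Per1, a clock gene that the receptor also drives, stood at 21.9, 37.6 and 27.7 CPM in SED and 13.4, 13.0 and 11.4 CPM in AET (-1.21 ± 0.17). The receptor gene Nr3c1 fell by 0.36 ± 0.07, and Nr3c2, encoding the related mineralocorticoid receptor, rose from 11.2, 9.86 and 11.4 to 16.2, 18 and 16.0 CPM (0.63 ± 0.10, edgeR adjusted p = 0.00237). Per1 and Nr3c1 were chosen after their values were seen.

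Falls extended to genes of autophagy and of the proteasome. Of 33 autophagy and lysosome genes 12 fell and none rose (36.4%, against 12.3% of all genes), at a median of -0.21. Between 8 and 11 fell with any 1 library left out. Ulk1, encoding the kinase that starts autophagy, went from 65.5, 72.8 and 52.2 CPM to 40.1, 34.4 and 37.9 CPM (-0.76 ± 0.11, edgeR adjusted p = 0.00103). Map1lc3b, encoding the LC3 protein of the autophagosome membrane, fell by 0.54 ± 0.08, the cargo receptor gene Sqstm1 by 0.47 ± 0.08 and the lysosomal protease gene Ctsl by 0.65 ± 0.10. Pink1, which labels damaged mitochondria, was not called (-0.08 ± 0.08, edgeR adjusted p = 0.584). Of 46 proteasome subunits and regulators 11 fell and 1 rose (26.1%), with falls of 0.44 or less. That count rested on single libraries, with 2 falls without AET replicate 1, AET replicate 3 or SED replicate 2, 3 without SED replicate 3 and 6 without SED replicate 1, and with 3 falls under library sizes alone.

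Genes of translation initiation and of mTORC1 were called at shares near the 12.3% of all genes. Of 54 initiation factors 7 fell and 1 rose (14.8%), and the falls became 4 without AET replicate 3 or SED replicate 2 and 3 without SED replicate 1 or with the 6 SED and AET libraries alone. Beside Eif4ebp1, Eif3m, a subunit of the eIF3 complex, fell from 51.0, 55.3 and 52.5 to 32.1, 36.9 and 38.9 CPM (-0.56 ± 0.08, edgeR adjusted p = 0.00114). Of 26 genes of mTORC1 and its brakes 4 fell and none rose (15.4%). Eif4ebp1 counts in the mTORC1, initiation factor and FOXO lists. Mtor itself stood at -0.06 on the log2 scale and was not called. Of 36 genes of myostatin, activin and BMP signalling 4 rose and 4 fell (22.2%). With any 1 library left out, 0 to 3 of them rose and 2 to 5 fell. Mstn, encoding the muscle growth inhibitor myostatin, had 85.9, 63.8 and 93.0 CPM in SED and 69.8, 61.9 and 61.7 CPM in AET and was not called (-0.33 ± 0.12, edgeR adjusted p = 0.105). Acvr1b, encoding a type I receptor for activin and myostatin, fell from 66.3, 71.7 and 70.5 to 37.7, 31.3 and 29.7 CPM (-1.08 ± 0.10, edgeR adjusted p = 7.16e-05).

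Genes that set the entry of pyruvate into the TCA cycle moved in opposite directions. Pdk4, whose kinase shuts pyruvate dehydrogenase, stood at 3469, 3231 and 3261 CPM in SED and 1074, 1100.4 and 1508 CPM in AET (-1.44 ± 0.18, edgeR adjusted p = 0.00106). Its opponent Pdp1, encoding the phosphatase that reopens the enzyme, rose from 60.2, 51.1 and 60.6 to 94.0, 97.5 and 87.0 CPM (0.70 ± 0.08, edgeR adjusted p = 0.000390). Pdha1, encoding the enzyme's catalytic subunit, was not called (-0.01 ± 0.10, edgeR adjusted p = 0.971). The other phosphatase gene, Pdp2, fell by 1.42 ± 0.26, a call lost without AET replicate 1 (edgeR adjusted p = 0.0586).

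Of 26 genes of fatty acid entry and lipid droplets 5 fell and none rose (19.2%, against 12.3% of all genes), and 3 fell without AET replicate 1 or SED replicate 3. Lpin1, which makes diacylglycerol and also coactivates PPAR factors, went from 694, 723 and 549 CPM to 353, 336 and 334 CPM (-0.94 ± 0.10, edgeR adjusted p = 0.000271). Angptl4, whose product inhibits lipoprotein lipase, went from 36.9, 27.0 and 34.2 to 4.49, 8.32 and 6.65 CPM (-2.32 ± 0.29). Plin4, a droplet coat gene, fell by 1.28 ± 0.22, and its call was lost without AET replicate 1 (edgeR adjusted p = 0.0503). All 23 fatty acid oxidation genes had an estimate below 0 and 4 were called (17.4%). This count was 2 without AET replicate 1, AET replicate 2, SED replicate 2 or SED replicate 3, and 8 without AET replicate 3. The call was firm for the peroxisomal enzyme genes Ehhadh (-1.6 ± 0.25) and Eci2 (-0.64 ± 0.10), while Hadha, encoding a subunit of the mitochondrial trifunctional protein, was not called (-0.15 ± 0.12).

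Glycolysis and glycogen genes fell in 8 of 40 cases and rose in 2 (25%, against 12.3% of all genes). No rise was called without AET replicate 1 or 2 or SED replicate 1 or 2 and 1 without AET replicate 3 or SED replicate 3, and the falls numbered 5 without AET replicate 1, AET replicate 3 or SED replicate 1. Pfkfb4, which sets the level of a glycolysis activator, went from 47.2, 53.4 and 52.9 to 24.3, 30.1 and 29.3 CPM (-0.87 ± 0.09, edgeR adjusted p = 0.000203). Slc16a3, encoding the lactate exporter MCT4, fell from 282, 313 and 319 to 154, 189 and 188 CPM (-0.78 ± 0.12), and Ugp2, which makes the glucose donor for glycogen, fell by 0.46 ± 0.10. Aldoa, an abundant glycolytic enzyme gene, was not called (-0.11 ± 0.08, edgeR adjusted p = 0.404). Ppp1r3c, which directs a phosphatase to glycogen, stood at 735, 809 and 981 CPM in SED and 287, 284 and 216 CPM in AET (-1.68 ± 0.32), a call lost without AET replicate 1, 2 or 3 or SED replicate 2 or 3 (edgeR adjusted p up to 0.0679).

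Alpha-arrestins, which pull nutrient transporters from the cell surface, fell in 3 of 5 cases (60%, against 12.3% of all genes). Arrdc3 went from 161, 310 and 200 CPM in SED to 39.3, 44.4 and 35.5 CPM in AET (-2.49 ± 0.25, edgeR adjusted p = 0.00135), and Txnip, which removes glucose transporters and binds thioredoxin, from 1075, 981 and 1086 to 620, 708 and 699 CPM (-0.63 ± 0.08). SED replicate 2 was the highest for Arrdc3 and the lowest of the SED libraries for Txnip. Tbc1d1, which holds back GLUT4 vesicles, fell from 159, 167 and 186 to 86.1, 88.0 and 108 CPM (-0.86 ± 0.10, edgeR adjusted p = 0.000390). Among 23 amino acid transporter genes 3 fell and none rose (13%, near the 12.3% of all genes). The steepest was Slc43a1, encoding the large neutral amino acid transporter LAT3, with 53.6, 52.4 and 52.6 CPM in SED and 10.7, 11.4 and 12.7 CPM in AET (-2.19 ± 0.25, edgeR adjusted p = 0.00180). The other 2, Slc7a8 and Slc7a2, lost their calls without AET replicate 2 (edgeR adjusted p = 0.0544 and up to 0.0638), Slc7a2 also without AET replicate 1 or 3.

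Among NAD genes 1 gene rose and stood far from the rest. Nmrk2, encoding a muscle kinase that turns nicotinamide riboside into the NAD precursor, stood at 11.8, 9.51 and 8.70 CPM in SED and 87.6, 80.7 and 95.9 CPM in AET (3.14 ± 0.27, edgeR adjusted p = 0.000706). Its relative Nmrk1 was not called, at 0.22 on the log2 scale, nor was Nampt, encoding the enzyme of the main salvage route, at 0.07 ± 0.08. Of 21 genes of NAD synthesis and use 14.3% were called, against 12.3% of all genes, and 2 fell, Sirt1 by 0.43 ± 0.10 and Nadk2 by 0.34 ± 0.10. Both calls were lost without AET replicate 1, that of Sirt1 also without SED replicate 2 (edgeR adjusted p up to 0.0561). Nadk2 lost its call in 7 of the 9 fits with 1 library left out and kept it without AET replicate 3 and without SED replicate 2, and it also lost its call under 5 of the other 10 alternatives.

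Regulators of mitochondrial genes moved in both directions. Of 26 genes of the PGC-1, PPAR and ERR regulators 2 rose and 5 fell (26.9%, against 12.3% of all genes), at a median of -0.04. Only 1 rise was called without AET replicate 3 or SED replicate 2. Falls numbered 2 without AET replicate 1 or 3 or SED replicate 3. They numbered 3 without AET replicate 2, AET_MET replicate 3 or SED replicate 1 or 2. Ppargc1b, encoding PGC-1 beta, went from 4.25, 4.49 and 5.03 CPM in SED to 8.45, 7.85 and 10.5 CPM in AET (0.96 ± 0.16, edgeR adjusted p = 0.00319). Ppargc1a, encoding PGC-1 alpha, stood at 29.6, 27.7 and 37.9 CPM in SED and 44.9, 46.8 and 50.8 CPM in AET (0.58 ± 0.13), a call lost without AET replicate 3 or SED replicate 2 (edgeR adjusted p up to 0.0561). Lpin1, given above, and Nrip1, which encodes a corepressor of nuclear receptors, were among the falls, and Nrip1 (-0.58 ± 0.13) lost its call without AET replicate 3 or SED replicate 1 (edgeR adjusted p up to 0.0611). The lists of complexes II to V (45 genes), of the TCA cycle and malate-aspartate shuttle (26 genes) and of mitochondrial DNA protein genes (13 genes) held no edgeR call. At an unadjusted p under 0.05 they held 2, 2 and 3 genes, DESeq2 called 0, 1 and 2 of them and limma-voom 0, 0 and 3. Their medians were -0.06, -0.08 and 0.01, and those of the first 2 turned above or to 0 without AET replicate 1, at 0.03 and 0.00. Complex I had 1 rise and 1 fall among 36 genes (5.56%, against 12.3% of all genes). None of the 36 was called without AET replicate 1 or 3 or SED replicate 1 or 2. Levels of single genes overlapped between the groups, as for Atp5b, an ATP synthase gene, with 1604, 1573 and 1729.9 CPM in SED and 1235, 1581 and 1666 CPM in AET (-0.13 ± 0.11).

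**Figure D3:**
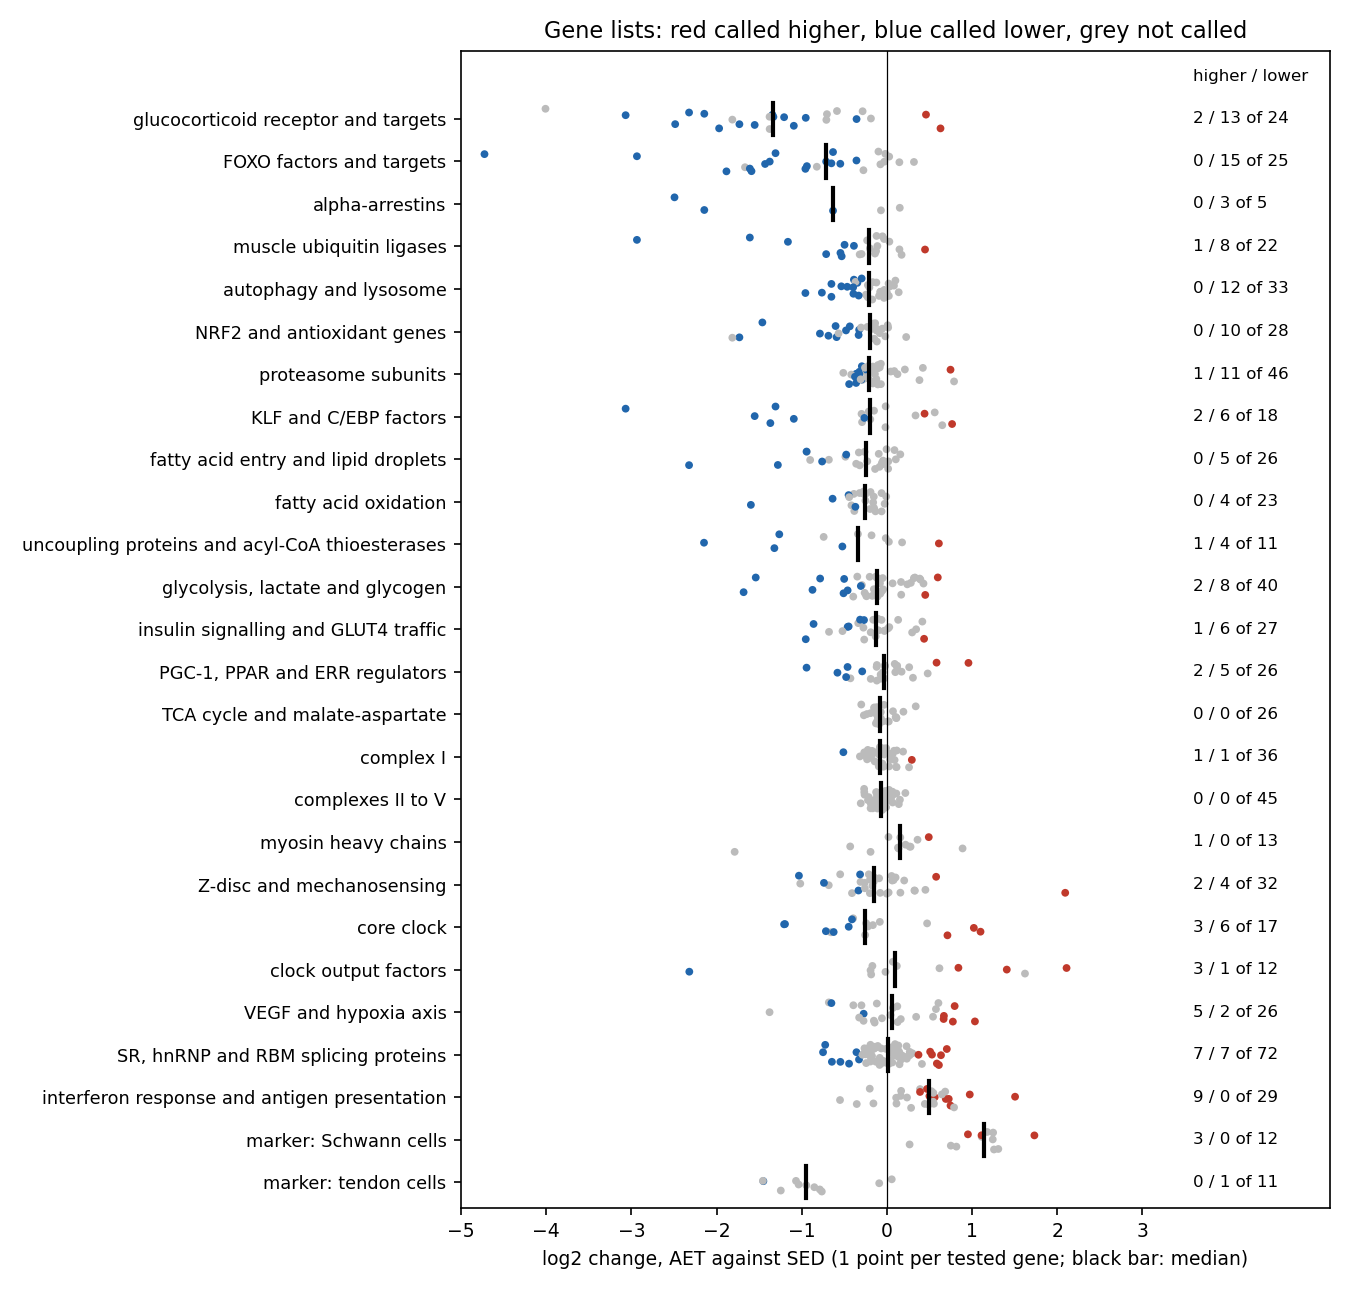
Log2 change in AET against SED (horizontal axis) of the tested members of 26 gene lists (rows); each point is a gene, red if called higher, blue if called lower and grey if not called, and the black bar is the list median. The glucocorticoid list (median -1.34) and the FOXO list (-0.71) lie to the left, and the lists of complexes II to V and of the TCA cycle lie around 0 with no call.

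Myosin heavy chain levels overlapped between the groups. Per kb of exon, Myh4, the chain of the fastest fibers, stood at a mean of 12595 CPM per kb in SED and 12761 CPM per kb in AET. Myh1 followed at 684 and 878 CPM per kb, Myh2 at 327 and 365, and Myh7, the chain of slow fibers, at 33.1 and 29.0. None of the 4 was called, and in each the libraries of the groups overlapped. Myh7 was uneven within AET, at 131, 84.1 and 534 CPM against 253, 323 and 280 CPM in SED (-0.19 ± 1.30, edgeR adjusted p = 0.942). AET replicate 3 was likewise highest for Atp2a2, encoding the slow calcium pump, at 179 CPM against 85.3 and 72.2 CPM, and the median of 12 slow-fiber genes went from -0.34 to -1.15 without this library. Myh9, a nonmuscle myosin, rose from 71.9, 81.9 and 69.1 to 115, 94.8 and 104 CPM (0.49 ± 0.09, edgeR adjusted p = 0.00453).

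At the Z-disc, where sarcomeres join and sense stretch, 2 of 32 genes rose and 4 fell (18.8%, against 12.3% of all genes). Ky, encoding a protease-like protein whose loss gives kyphoscoliosis in mice, stood at 44.9, 22.9 and 26.3 CPM in SED and 150, 137 and 114 CPM in AET (2.09 ± 0.34, edgeR adjusted p = 0.0110). Synpo2, an actin-binding Z-disc gene, rose from 337, 300 and 355 to 571, 401 and 509 CPM (0.58 ± 0.12). In the other direction Fhl3, a LIM protein gene, fell from 166, 133 and 177 to 68.9, 80.5 and 83.0 CPM (-1.03 ± 0.11, edgeR adjusted p = 0.000172), and Pdlim5 fell by 0.74 ± 0.10. The number of rises was 4 with DESeq2, with upper-quartile scaling, with no filter or with a filter at 5 CPM, and the number of falls was 2 without AET replicate 1, 2 or 3 or SED replicate 1.

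Kelch proteins of muscle, most of them adaptors of ubiquitin ligases, fell in 4 of 12 cases and rose in 1. The share called was 41.7%, against 12.3% of all genes. The rise was that of Kbtbd13 (0.69 ± 0.15), chosen after its values were seen, and no kelch gene was called higher without AET replicate 3. Klhl38 had the steepest change, from 141, 161 and 147 CPM to 53.1, 41.9 and 52.4 CPM (-1.61 ± 0.19, edgeR adjusted p = 0.00176), followed by Klhl21 (-0.50 ± 0.09), Klhl7 (-0.49 ± 0.07) and Klhl24 (-0.40 ± 0.08). Klhl41, which stabilises thin filaments, was not called (0.12 ± 0.11). In the dystrophin complex, which ties the fiber's skeleton to the matrix, 2 of 19 genes rose and 1 fell (15.8%, against 12.3% of all genes). Utrn, encoding the dystrophin relative utrophin, rose from 70.3, 68.0 and 65.6 to 107, 92.4 and 107 CPM (0.59 ± 0.08, edgeR adjusted p = 0.00104). Dmd, the dystrophin gene, was not called (0.05 ± 0.09).

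Calcium handling genes were mostly not called. Of 26 genes of calcium release and uptake 1 rose (3.85%, against 12.3% of all genes). It was Hrc, encoding a calcium-binding protein of the reticulum (0.44 ± 0.10). Hrc lost its call without AET replicate 1 or 3 or SED replicate 1 or 2 (edgeR adjusted p up to 0.0683). Calm2, a calmodulin gene, rose from 71.5, 54.1 and 53.7 to 157, 130 and 124 CPM (1.19 ± 0.14, edgeR adjusted p = 0.000566). Calm3, which encodes the same protein, was not called (0.09 ± 0.09). Hdac9, a class II histone deacetylase gene that quiets MEF2 targets, rose from 3.83, 2.86 and 2.25 to 9.93, 8.98 and 7.30 CPM (1.55 ± 0.19, edgeR adjusted p = 0.000435). Mrtfa, whose product carries actin signals to serum response factor, rose from 5.29, 4.89 and 5.03 to 17.9, 12.1 and 11.2 CPM (1.43 ± 0.19, edgeR adjusted p = 0.00104), and Actb, encoding beta-actin, rose by 0.55 ± 0.11.

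Clock genes moved in both directions. Of 17 core clock genes 3 rose and 6 fell (52.9%, against 12.3% of all genes). With any 1 library left out 3 rose and 4 to 6 fell. Nr1d1, encoding the repressor REV-ERB alpha, stood at 29.6, 25.3 and 26.7 CPM in SED and 60.2, 49.0 and 56.4 CPM in AET (1.02 ± 0.10, edgeR adjusted p = 0.000153), and Nr1d2, encoding REV-ERB beta, went from 59.9, 63.9 and 68.2 to 102, 105 and 107 CPM (0.71 ± 0.09). Per3, a period gene, rose from 4.63, 4.54 and 5.76 to 9.5, 11.2 and 11.3 CPM (1.10 ± 0.15), while Per1 fell, as given above, and Per2 was not called (0.47 ± 0.21). Arntl, encoding BMAL1, stood at 51.9, 44.0 and 53.0 CPM in SED and 21.0, 21.1 and 22.8 CPM in AET (-1.20 ± 0.24), and its call was lost without AET replicate 1, 2 or 3 or SED replicate 1 or 3 (edgeR adjusted p up to 0.0851) and without a filter on low counts. Its partner Clock was not called, at -0.08 on the log2 scale. Cry2, a cryptochrome gene chosen after its values were seen, fell from 42.6, 49.5 and 38.8 to 32.4, 23.3 and 24.2 CPM (-0.72 ± 0.13).

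Output factors were led by a pair of opposites at the D-box, a motif through which the clock passes on its phase. Nfil3, encoding the D-box repressor, went from 46.6, 45.1 and 40.8 CPM to 8.07, 9.29 and 9.13 CPM (-2.32 ± 0.31, edgeR adjusted p = 0.00499). Dbp, encoding an activator at the same motif, went from 7.42, 4.76 and 8.06 to 28.0, 29.4 and 29.7 CPM (2.11 ± 0.40), a call lost without each of the 6 AET and SED libraries (edgeR adjusted p up to 0.0704). In both genes the groups stood far apart. Bhlhe40 and Bhlhe41, encoding repressors at the E-box, rose by 1.41 ± 0.18 and 0.84 ± 0.14.

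**Figure D4:**
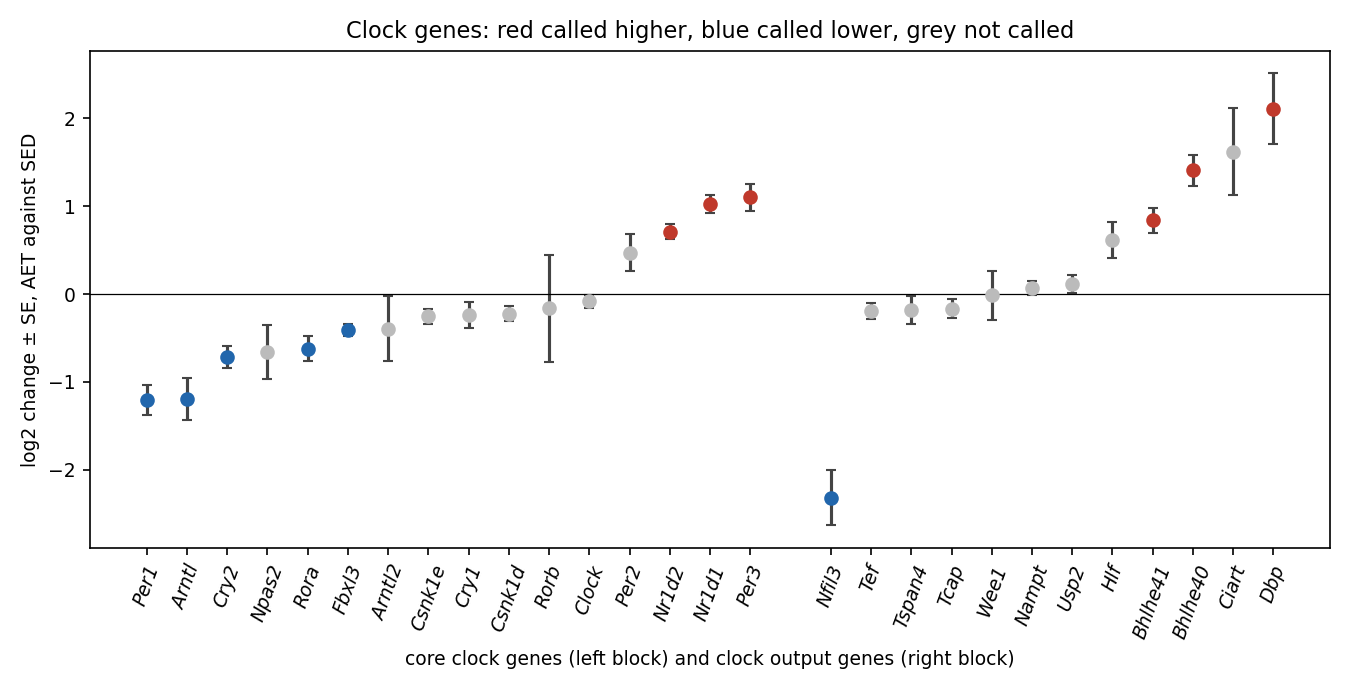
Log2 change in AET against SED (vertical axis) with its SE (bars) for 16 of the 17 core clock genes (left block) and 12 output genes (right block); red points were called higher, blue lower and grey not called. Nr1d2, Nr1d1 and Per3 lie above 0 in the core block where Per1, Arntl and Cry2 lie below it, and Nfil3 and Dbp lie at the opposite ends of the output block.

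The upstream windows of the core clock and output genes were searched for the D-box TTATGTAA and the E-box CACGTG, the letters bound by these factors. Of 13 core clock genes with a window, 1 held the D-box, Per3, and 2 held the E-box, Per1 and Cry1. Of 9 output genes with a window, none held the D-box and 4 held the E-box, Tef, Bhlhe41, Ciart and Tspan4. Per3 and Per1 are shown because they moved in opposite directions, with the motifs in capitals: Per3 at chr4:151044666-151044915 (minus strand, the D-box at 205 and again at 158 before the start) and Per1, in the window that holds its E-box out of 2 listed, at chr11:69098699-69098948 (plus strand, 166 before the start).
Per3: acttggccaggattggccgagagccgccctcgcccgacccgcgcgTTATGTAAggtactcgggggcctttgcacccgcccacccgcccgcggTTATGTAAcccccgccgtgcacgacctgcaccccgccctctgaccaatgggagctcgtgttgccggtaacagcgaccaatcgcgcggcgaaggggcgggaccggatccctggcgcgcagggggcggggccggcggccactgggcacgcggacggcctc
Per1: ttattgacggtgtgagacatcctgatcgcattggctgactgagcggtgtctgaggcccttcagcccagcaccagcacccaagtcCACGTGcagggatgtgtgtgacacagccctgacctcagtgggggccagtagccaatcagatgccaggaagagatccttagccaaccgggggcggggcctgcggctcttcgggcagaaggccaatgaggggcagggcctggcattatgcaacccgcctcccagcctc
The D-box stood in 0.561% of the 9809 tested protein-coding genes with a window, in 0.538% of those called higher, in 0.434% of those called lower and in 0.819% of all windows. The E-box stood in 9.95%, 7.35%, 12% and 6.02%. As with the FOXO motif, matches of letters do not show that a factor binds.

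Factors of the KLF and C/EBP families fell in 6 of 18 cases and rose in 2 (44.4%, against 12.3% of all genes). Of the rises, 1 stayed without AET replicate 1 or 3, AET_MET replicate 1 or SED replicate 2 or 3. The falls include Klf9 and Cebpb, given with the glucocorticoid list, and Klf15, which is also in the FOXO list. Klf15, a glucocorticoid and fasting gene, went from 41.7, 49.6 and 59.5 to 19.9, 20.2 and 20.8 CPM (-1.31 ± 0.14, edgeR adjusted p = 0.000390), and Klf10, a gene induced by TGF-beta, from 72.5, 57.3 and 59.6 to 19.9, 27.8 and 25.6 CPM (-1.37 ± 0.14). Klf7, chosen after its values were seen, rose from 11, 10.8 and 7.62 to 18.1, 17 and 15 CPM (0.77 ± 0.13). The retinoic acid receptor gene Rarb had one of the smallest p of the genes that rose, with 3.21, 3.48 and 3.91 CPM in SED and 9.64, 11.3 and 10.8 CPM in AET (1.58 ± 0.12, edgeR adjusted p = 4.37e-05). Bach1, a repressor of antioxidant genes, fell from 53.9, 63.9 and 58.5 to 26.5, 28.4 and 29.9 CPM (-1.05 ± 0.08, edgeR adjusted p = 4.37e-05). On GRCm38, Rarb lies on chromosome 14 at 16430839 to 16819156, Eif4ebp1 on chromosome 8 at 27260329 to 27276674 and Arrdc3 on chromosome 13 at 80883384 to 80896042.

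Vegfa, its receptor gene Kdr and the coreceptor gene Nrp1 rose, while the list that holds them had a median near 0. Of 26 genes of the VEGF and hypoxia axis 5 rose and 2 fell (26.9%, against 12.3% of all genes). The list median was 0.06, with 14 estimates above 0 and 12 below. Rises numbered 3 without AET replicate 2, SED replicate 1 or SED replicate 2. The falls numbered 4 without AET replicate 1 and 1 without AET replicate 2 or 3 or SED replicate 1 or 2. Vegfa stood at 52.1, 48.5 and 69.9 CPM in SED and 86.1, 94.8 and 111 CPM in AET (0.77 ± 0.15, edgeR adjusted p = 0.00949). Its receptor Kdr went from 34.4, 28.1 and 32.9 to 55.7, 59.6 and 79.9 CPM (1.03 ± 0.15), and the coreceptor Nrp1 from 27.7, 28.3 and 34.0 to 42.8, 49.7 and 50.6 CPM (0.67 ± 0.10). The decoy receptor Flt1 was not called, at -0.15 on the log2 scale. Endothelial markers had 1 rise, Kdr itself, and 1 fall among 14 (14.3%, against 12.3% of all genes). The rises became 2 without SED replicate 3 and the falls 3 without SED replicate 1. The markers had a summed level of 428 to 494 CPM in SED and 471 to 543 CPM in AET, and a fall of the tight junction gene Cldn5 from 11.1, 11 and 11.6 to 5.73, 5.78 and 4.95 CPM (-1.03 ± 0.13, edgeR adjusted p = 0.000545).

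Secreted factors and matrix genes held a few strong members. Pthlh, encoding parathyroid hormone-related protein, rose from 0.520, 0.705 and 0.684 CPM to 2.34, 2.93 and 2.72 CPM (2.06 ± 0.28, edgeR adjusted p = 0.000816). Of 37 collagen and matrix genes 2 rose and 5 fell (18.9%, against 12.3% of all genes). These counts were unsteady, at 6 rises without SED replicate 2 and 1 without each of the other AET and SED libraries, and at 2 falls without AET replicate 1 or 3 and 3 without SED replicate 3, while DESeq2 gave 5 rises, and the list median of -0.06 became 0.22 without SED replicate 2. Lox, which crosslinks collagen, fell from 40.7, 49.4 and 51.4 to 14.5, 17.3 and 12.4 CPM (-1.68 ± 0.20, edgeR adjusted p = 0.00138), and Col15a1, a basement membrane collagen of vessels and fibers, rose from 13.3, 14.1 and 12.8 to 20.0, 19.5 and 29.2 CPM (0.77 ± 0.14).

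Long noncoding RNAs of nuclear bodies rose. Malat1, a transcript of nuclear speckles, stood at 1197, 1181 and 1071 CPM in SED and 2284, 2365 and 2259.6 CPM in AET (1.00 ± 0.09, edgeR adjusted p = 5.89e-05). Neat1, the scaffold of paraspeckles, went from 156, 122 and 149 to 223, 231 and 280 CPM (0.78 ± 0.12). Snhg12 (-1.36 ± 0.19) and Snhg1 (-1.24 ± 0.17), host transcripts of small nucleolar RNAs, fell. Of 20 long noncoding and imprinted transcripts 6 rose and 3 fell (45%, against 12.3% of all genes), and 3 rose without AET replicate 3. H19, an imprinted RNA, was not called (-0.51 ± 0.26).

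Splicing factors split evenly, with 7 rises and 7 falls among 72 (19.4%, against 12.3% of all genes). Rbfox2, a regulator of muscle splicing, rose from 32.6, 31.1 and 37.5 to 54.7, 50 and 49.8 CPM (0.61 ± 0.08, edgeR adjusted p = 0.000736), and the hnRNP genes Hnrnph3 (0.70 ± 0.11), Hnrnpa2b1 (0.64 ± 0.09) and Hnrnpm (0.51 ± 0.08) rose too. Rbm20, which controls titin splicing and was chosen after its values were seen, fell from 93.1, 94.7 and 77.3 to 56.5, 42.0 and 59.3 CPM (-0.75 ± 0.12, edgeR adjusted p = 0.00319). Ttn itself was not called (0.07 ± 0.11). The falls became 4 without AET replicate 1.

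Stress response genes that were called fell more often than they rose, though heat shock genes were split. Of 28 NRF2 and antioxidant genes 10 fell and none rose (35.7%, against 12.3% of all genes). The count was 3 without AET replicate 1, 4 without AET replicate 2 or SED replicate 2 and 6 without SED replicate 3. Nfe2l2, encoding NRF2, went from 46.2, 56.2 and 42.1 to 29.9, 33.5 and 31.8 CPM (-0.60 ± 0.10, edgeR adjusted p = 0.00237), and Hmox1, encoding heme oxygenase, from 8.79, 15.7 and 9.53 to 3.58, 4.22 and 4.54 CPM (-1.46 ± 0.26). Atf4, the factor of the integrated stress response, fell from 114, 141 and 135 to 77.7, 85.0 and 88.2 CPM (-0.64 ± 0.09), and its negative feedback gene Ppp1r15a from 47.1, 55.1 and 46.4 to 19, 17.5 and 21.3 CPM (-1.36 ± 0.16). SED replicate 2 was the highest library in each of these 4 genes. Of 22 integrated stress response genes 4 fell and 1 rose (22.7%), with 2 falls without SED replicate 1 or 2. Of 23 unfolded protein response genes 4 fell and 1 rose (21.7%), with 2 falls without AET replicate 1 or 3 or SED replicate 2. Among 32 heat shock genes 3 fell and 2 rose (15.6%), with 21 estimates above 0 and 11 below. No heat shock rise was called without AET replicate 2 or 3 or SED replicate 1. Hspa8, an abundant chaperone gene, was not called (0.09 ± 0.11).

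Interferon response and antigen presentation genes rose in 9 of 29 cases with none called lower (31%, against 12.3% of all genes). Their median was 0.49. The rises numbered 2 without AET replicate 3, 3 without AET replicate 1 or SED replicate 2 and 4 without SED replicate 3, and 5 with a filter at 5 CPM. H2-K1, a class I histocompatibility gene, went from 30, 30.8 and 29.0 to 41.1, 37.9 and 45.5 CPM (0.47 ± 0.09, edgeR adjusted p = 0.00572). Macrophage markers summed to 128 to 179 CPM in SED and 127 to 199 CPM in AET, with 1 of 11 under 1 CPM throughout (Fcgr1) and none called by edgeR, by DESeq2 or by limma-voom or at an unadjusted p under 0.05, although 3 were called higher without SED replicate 2, and their part in the result was not tested.

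Summed marker levels separated the groups for Schwann cells, tendon cells, satellite cells and adipocytes, and for T and B cells at sums below 1 CPM. The 12 Schwann cell markers summed to 68.5 to 79.1 CPM in SED and 125 to 207 CPM in AET, and the 11 tendon markers to 349 to 588 CPM in SED and 148 to 340 CPM in AET. Of the Schwann list 3 genes rose (25%, against 12.3% of all genes). None was called without AET replicate 2 or 3 or any 1 SED library. The number was 1 without AET replicate 1 or AET_MET replicate 1 and 7 without AET_MET replicate 2. With the 6 SED and AET libraries alone 9 of the 12 were called, with DESeq2, limma-voom or edgeR without robust estimation 6, and with a replicate block or a filter at 5 CPM 1. All 12 Schwann estimates lay above 0, and in 11 the libraries did not overlap, where 32.7% of all genes tested did not overlap in either direction. Mbp, encoding a myelin protein, stood at 15.2, 18.3 and 16.4 CPM in SED and 30.2, 34.2 and 54.1 CPM in AET and was not called (1.25 ± 0.38, edgeR adjusted p = 0.0801). Of the tendon list Prg4, encoding lubricin, fell by 1.45 ± 0.29, a call lost without AET replicate 1 or 3 or SED replicate 3 (edgeR adjusted p up to 0.0694) and without a filter on low counts. The 8 satellite cell markers, of which Myf5 and Calcr stayed under 1 CPM, summed to 74.9 to 83.5 CPM in SED and 53.5 to 57.0 CPM in AET, and adipocyte markers, none of them called by edgeR, DESeq2 or limma-voom or at an unadjusted p under 0.05, to 136 to 168 CPM in SED and 170 to 202 CPM in AET. Of the 7 satellite cell markers tested 2 fell (28.6%). Estimates lay above 0 for 3 and below 0 for 4, at a median of -0.17. Sdc4, a syndecan that fibers also express, held a large part of the satellite sum. It fell from 43.3, 46.3 and 48.6 to 26.6, 27.3 and 27.4 CPM (-0.76 ± 0.13). Chodl fell from 7.18, 6.43 and 9.92 to 3.01, 4.45 and 4.30 CPM (-0.99 ± 0.20), while Cdh15, encoding M-cadherin, was not called (0.01 ± 0.10).

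**Figure D5:**
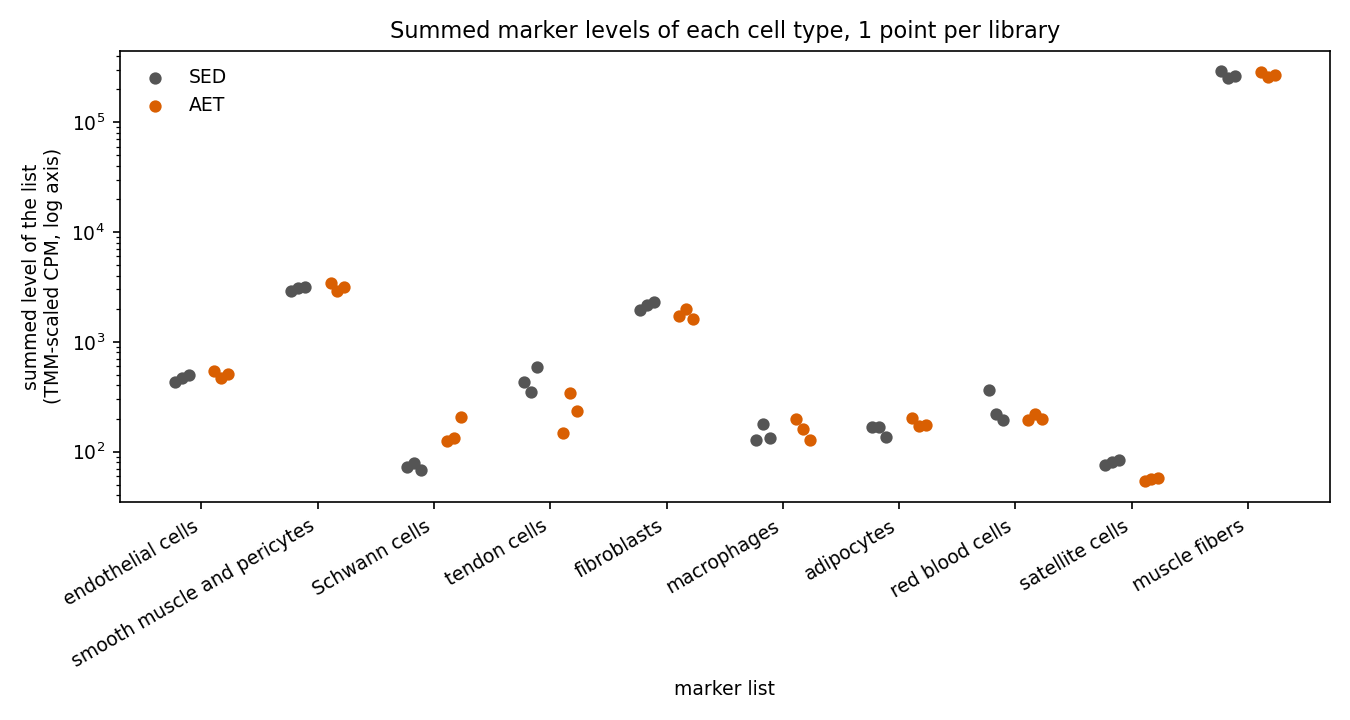
Summed level of each marker list in TMM-scaled CPM (vertical log axis) for 10 cell types (horizontal axis), with 1 point per library, grey for SED and orange for AET. Schwann cell sums lie higher in AET (125 CPM or more) than in SED (79.1 CPM or less), tendon and satellite cell sums lie lower, and the muscle fiber sums overlap.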

How the data were processed

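Messenger RNA of mouse gastrocnemius was sequenced in 9 samples, 3 each of the SED, AET and AET_MET groups, which were assigned from the labels. The authors deposited 1 table of expected counts per gene, and the submitters' processing notes name STAR 2.5.3a, RSEM 1.3.0, edgeR 3.34.0 and GRCm38 without giving their roles. No annotation release or strand setting was stated in the labels or notes, so overlapping, antisense and near-identical genes (calmodulin and class I histocompatibility genes among them) are uncertain. Of 55416 identifiers 52083 were given a symbol and 3333 had none. Between 5.18% and 5.53% of values in each SED and AET library were not whole, and expected counts were rounded.

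Genes were filtered by filterByExpr, scaled by TMM and tested with the robust quasi-likelihood test of edgeR 4.0.16 (R 4.3.3) over all 9 libraries with the contrast AET against SED, 6 residual degrees of freedom and Benjamini-Hochberg adjusted p under 0.05. Alternatives used DESeq2 1.42.0, limma 3.58.1 with voom, other scalings and filters, a replicate block and each library left out. Genes were named by a rule: called genes of at least 1 CPM without overlap, with 10 in each direction by fold, 10 in each direction by difference in CPM and 10 by p; up to 4 called and the 2 most abundant genes of each of 71 lists; and a panel of 20 genes. The comparison, lists, panel and motifs were chosen with earlier results of these data known. Promoter windows came from RefSeq (GRCm38.p6). Some genes are not reported here.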

Additional observations from a re-analysis of the deposited data

How the results depend on the processing

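With 1 library left out, the number of genes called in AET against SED ranged from 934 (without AET replicate 1) to 1509 (without AET_MET replicate 1), against 1712 with all libraries; rises ranged from 412 to 722 and falls from 516 to 792. Counts without AET replicate 3, SED replicate 2 and SED replicate 1 were 954, 957 and 1125. The other 10 alternatives gave 1416 (library sizes alone) to 1718 calls (no filter on low counts), and DESeq2 and limma-voom gave 1694 and 1696. Every main call that an alternative tested kept its sign there. Of 238 named called genes, 140 kept their call in all alternatives that tested them and 98 lost it in at least 1. Library sizes alone gave 55.7% rises and upper-quartile scaling 58.0%, against 47.4%. Same-numbered AET and SED libraries correlated at 0.0834, 0.0262 and 0.110 in their deviations from the group means, each library best with its own number. These correlations were weak and were not taken as pairing, and the fit with a replicate block gave 1530 calls. Having 3 libraries a group limits the precision.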

Other observations

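Transcripts of the mitochondrial genome were uneven within AET, and none of the 13 protein genes was called by edgeR, where 3 had an unadjusted p under 0.05, DESeq2 called 2 and limma-voom called 3. The subunit gene mt-Co2 stood at 73.7, 85.8 and 76.2 CPM in SED and 18.6, 38 and 23.7 CPM in AET, and mt-Nd6, the protein gene on the opposite strand from the others, at 85.3, 95.7 and 144 CPM in SED and 272, 134 and 261 CPM in AET. AET replicate 1 was the lowest AET library for mt-Co2 and the highest for mt-Nd6.

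Among gene biotypes, 28 of 241 tested TEC models (loci awaiting experimental evidence) were called higher and 1 lower, 12% in all against 12.3% of all genes. Of 207 long intergenic noncoding RNAs 22 were called higher and 10 lower (15.5%). Processed pseudogenes had 5 rises and 13 falls among 371 (4.85%). Of 78 cytosolic ribosomal protein genes 11 fell and none rose (14.1%), and the count ran from 1 without AET replicate 1 to 17 without AET replicate 2. It was 17 with DESeq2, 4 with upper-quartile scaling or with the 6 SED and AET libraries alone and 1 with library sizes alone.

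In the metformin group, whose libraries entered the estimate of the spread and not the contrast, the epidermis genes summed to 603, 23.5 and 11.1 CPM, so that AET_MET replicate 1 resembled SED replicate 1 in this measure.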
